A study of Mus musculus with 9 samples.

Results

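Lad1, Penk, Rln3 and Il1r2 are 4 of the 24594 mouse genes in the deposited expression table, and they were selected on measured values, because each is best known from tissues other than the thymocyte and each rose very steeply in at least 1 genotype of thymocyte when the host displayed the cognate self-antigen. The rule carried no numerical limit. The rise between hosts in these 9 libraries is therefore what chose the genes, and it is given here as a description without a test.

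The cells were OT-II thymocytes, whose transgenic T cell receptor recognises an ovalbumin peptide on MHC class II. Lethally irradiated hosts received a 1:1:3 mixture of OT-II bone marrow lacking Nr4a1 and Nr4a3 by label (B6 background, called DKO-labelled here), control OT-II bone marrow (an F1 with BoyJ) and wild-type marrow without the receptor transgene, and were examined 4.7 weeks after reconstitution. RIPmOVA hosts were F1 mice of BoyJ and a strain in which the rat insulin promoter drives membrane-bound ovalbumin, also in thymic medullary epithelial cells. WT hosts are labelled BoyJ, while the methods of the study name F1 mice from the RIPmOVA cross for both kinds of host, and if the label holds, host strain and antigen cannot be told apart. CD4+ CD8- CD69+ Valpha2+ Vbeta5+ thymocytes of both donor genotypes were sorted from the same chimeras, giving 2 OT-II and 3 DKO-labelled libraries from WT hosts, and 2 OT-II and 2 DKO-labelled libraries from RIPmOVA hosts. The labels give the host mouse of each library, and libraries with the same replicate number and host have the same mouse.

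Developing T cells that meet their antigen on thymic epithelium may die, become regulatory T cells (Treg) or survive with reduced responsiveness, and a strong receptor signal induces transcription factors of the NR4A, EGR, AP-1 and NFAT families within the cell. Ladinin-1, the product of Lad1, is an anchoring filament protein of the basement membrane of epithelia. Proenkephalin, the product of Penk, is cut into the enkephalins, opioid peptides of neurons and the adrenal medulla, and its transcript has also been described in activated and regulatory T cells. Relaxin-3, the product of Rln3, is a neuropeptide of the insulin and relaxin superfamily made chiefly in the brainstem. Il1r2 encodes the decoy receptor for interleukin-1, which binds the cytokine without signalling and is known from myeloid cells, B cells and Treg, so that its place among genes of other tissues is the loosest of the 4.

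All values are deposited RPKM, a read number scaled to both exon length and library depth, which allows levels to be compared between genes. Library depth, worked back from the steps between low RPKM values, ranged from about 15520000 to 25050000 reads, and the read numbers quoted below come from it. In OT-II cells from WT hosts the 4 means lay above 38.1% (Lad1), 63.7% (Penk), 58.1% (Rln3) and 60.4% (Il1r2) of all genes in the table. In OT-II cells from RIPmOVA hosts they lay above 96.2%, 96.8%, 94.7% and 87.0% of all genes, in the same order.

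Lad1 (Entrez 16763, GRCm38 chromosome 1, 135818598 to 135833342, plus strand, protein coding) was close to silent without antigen. In WT hosts the OT-II libraries held 0.147 and 0.231 RPKM (9 and 21 reads), and the DKO-labelled libraries 0.073, 0.163 and 0.030 RPKM (7, 13 and 3 reads). In RIPmOVA hosts the OT-II libraries reached 42.1 and 39.4 RPKM (2743 and 3769 reads), and the DKO-labelled libraries 8.64 and 4.61 RPKM (698 and 318 reads). No library from a WT host overlapped any from a RIPmOVA host, and both OT-II libraries stood above both DKO-labelled libraries where antigen was present. The mean was 216-fold higher with antigen in OT-II cells and 74.7-fold higher in DKO-labelled cells. Because so few reads stood behind the WT-host values, the corresponding ratios of pooled reads had 95% exact intervals of 144 to 305 and 53.7 to 129, which cover counting error only. On the scale of log2(RPKM + 0.5), which understates the change of low genes, the rise was 5.91 (SE 0.26) in OT-II cells, the highest of the 11569 genes tested, and 3.54 (SE 0.24) in DKO-labelled cells, where Lad1 ranked 12.

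The 250 bases before the Lad1 start are shown because Lad1 had the steepest rise, and because the same motifs were searched in them as in the promoter of Rln3 below. The sequence is from RefSeq on build GRCm38.p6, at chr1:135818348-135818597, plus strand, and no part of it lies in an annotated exon.
Lad1: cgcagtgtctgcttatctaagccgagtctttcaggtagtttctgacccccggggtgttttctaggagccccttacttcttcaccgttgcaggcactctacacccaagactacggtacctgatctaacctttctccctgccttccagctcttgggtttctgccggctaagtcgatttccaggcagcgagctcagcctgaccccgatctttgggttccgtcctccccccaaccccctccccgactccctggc
The stretch was 57.6% G and C with 11 CpG dinucleotides and is printed without capitals, since of the 7 motifs searched on both strands it held only the short NFAT core GGAAA, on the minus strand from position -77 to -73 counted from the start, a motif found in 55.6% of all 32851 promoter windows of that length.

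Penk (Entrez 18619, GRCm38 chromosome 4, 4133531 to 4138819, minus strand, protein coding) was the most variable of the 4 genes. The OT-II libraries from WT hosts held 0.059 and 3.55 RPKM (2 and 178 reads), and the DKO-labelled libraries 0.076, 0.229 and 0.018 RPKM (4, 10 and 1 reads). One OT-II library, replicate 2, thus stood apart from the other 4 libraries from WT hosts, and that library also had the highest Rln3 value (1.37 RPKM) and the highest Lad1 value (0.231 RPKM) among them. In RIPmOVA hosts Penk was at 23.5 and 70.2 RPKM (842 and 3687 reads) in the OT-II libraries and at 5.31 and 1.11 RPKM (236 and 42 reads) in the DKO-labelled libraries. Every OT-II library with antigen exceeded every other library, whereas the lower DKO-labelled library with antigen fell below OT-II replicate 2 from a WT host. The change between hosts was 4.78 (SE 0.90) in log2 in OT-II cells, rank 2 of all genes tested, and 2.35 (SE 0.82) in DKO-labelled cells, rank 47. Without OT-II replicate 2 from the WT hosts the OT-II change was 6.20, and without OT-II replicate 1 it was 3.35. The ratio of pooled reads in DKO-labelled cells was 34.0 with an exact counting interval of 20.3 to 61.6, since only 15 Penk reads were present in the 3 WT-host libraries together. Penk overlaps A830012C17Rik, a transcript on the other strand that is not among the genes analysed here, and whether strand was used in counting is not given in the sources used here.

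Rln3 (Entrez 212108, GRCm38 chromosome 8, 84042929 to 84045000, minus strand, protein coding) separated the genotypes most sharply. Without antigen the OT-II libraries held 0.407 and 1.37 RPKM (4 and 20 reads), and the DKO-labelled libraries 0.905, 0.782 and 0.315 RPKM (14, 10 and 5 reads). With antigen the OT-II libraries rose to 38.4 and 26.5 RPKM (401 and 407 reads), while the DKO-labelled libraries were at 0.617 and 0.632 RPKM (8 and 7 reads), inside the range of the WT-host libraries. The log2 change between hosts was 4.64 (SE 0.37) in OT-II cells, rank 3, and -0.02 (SE 0.34) in DKO-labelled cells. With 15 reads with antigen against 29 without, the DKO-labelled ratio of pooled reads was 0.949, and its exact counting interval of 0.473 to 1.83 leaves a change of less than that size undetectable at this depth.

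The Rln3 promoter is shown because it was the only one of the 3 available member promoters that held the NR4A monomer element AAAGGTCA, the sequence that NR4A receptors are known to bind. The bases before the start are from RefSeq on build GRCm38.p6, at chr8:84045001-84045229, read on the minus strand, with the 21 bases next to the start left out because they lie in an annotated exon. Capitals mark the NR4A element, from position -117 to -110, and a TATA box, TATAAA, from position -40 to -35.
Rln3: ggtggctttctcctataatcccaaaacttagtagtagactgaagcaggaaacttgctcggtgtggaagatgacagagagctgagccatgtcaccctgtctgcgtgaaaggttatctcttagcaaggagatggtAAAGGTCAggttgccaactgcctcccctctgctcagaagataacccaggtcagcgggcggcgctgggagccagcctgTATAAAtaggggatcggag
The NR4A element was present in 439 windows, 1.34% of all promoter windows, and TATAAA in 12.4%. The NFAT core GGAAA also occurred once, from -204 to -200. Neither the CRE TGACGTCA (in 1.55% of windows), its short form TGACG (17.8%), the AP-1 site TGANTCA (6.75%) nor the EGR site GCGTGGGCG (0.536%) was found in the Rln3 or Lad1 window. TGACG is contained in TGACGTCA, so these searches overlap. A match of letters is a description of the sequence and shows no binding. The Il1r2 window held none of the 7 motifs and is not printed because 108 of its bases lie in annotated exons.

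Il1r2 (Entrez 16178, GRCm38 chromosome 1, 40074079 to 40125231, plus strand, protein coding) showed the opposite genotype order. In WT hosts it was at 1.35 and 0.961 RPKM (49 and 52 reads) in OT-II libraries and at 0.385, 0.402 and 0.358 RPKM (22, 19 and 21 reads) in DKO-labelled libraries. With antigen the 2 OT-II libraries reached 17.3 and 12.4 RPKM (669 and 702 reads), and the 2 DKO-labelled libraries 70.4 and 18.1 RPKM (3377 and 740 reads). All RIPmOVA-host libraries exceeded all WT-host libraries, and the highest value belonged to a single DKO-labelled library, replicate 1. The change in log2 was 3.20 (SE 0.49) in OT-II cells, rank 17, and 5.36 (SE 0.44) in DKO-labelled cells, rank 2 behind Ly6d at 5.83. As ratios of mean RPKM these were 12.9-fold and 116-fold. Gm16894, annotated on the other strand within Il1r2, was listed at 0.689 to 3.71 RPKM with its highest value in the same DKO-labelled library, so part of the Il1r2 signal is uncertain, above all in WT hosts where Gm16894 exceeded Il1r2 in all 3 DKO-labelled libraries. Gm37347 overlaps Il1r2 on the same strand and was not analysed here.

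**Figure D1:**
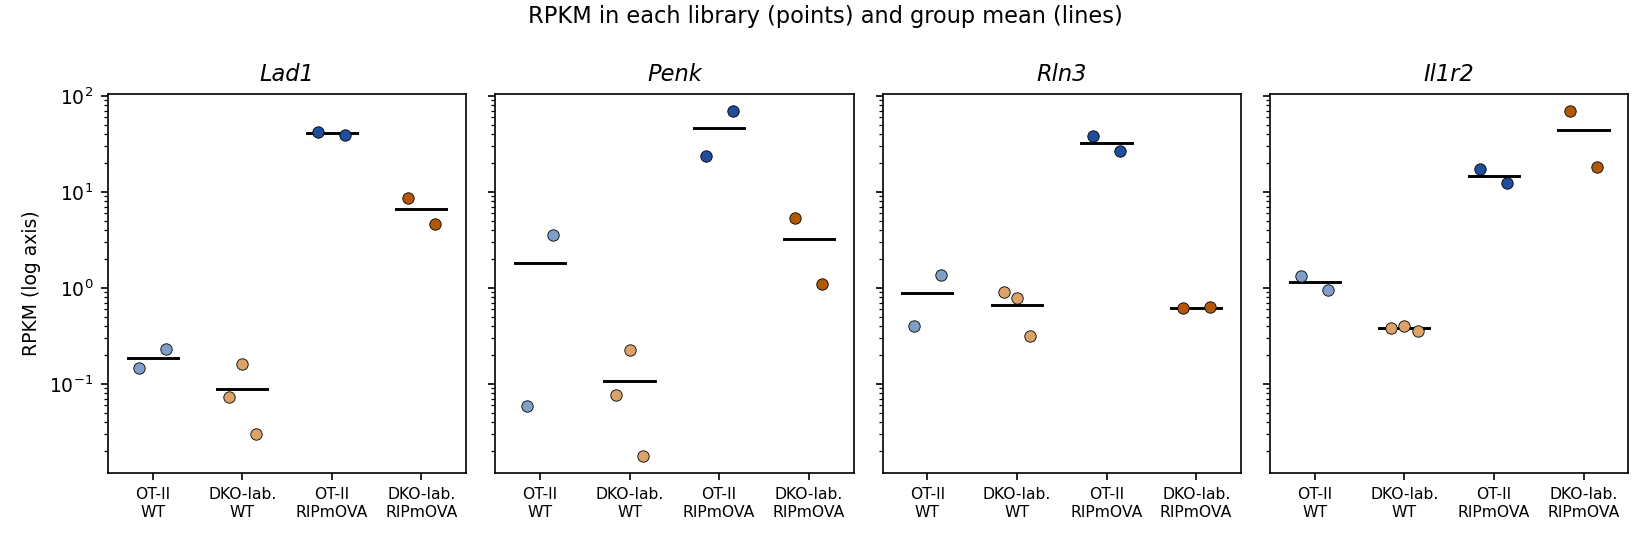
RPKM on a log axis of Lad1, Penk, Rln3 and Il1r2 in each of 9 libraries (points) by donor genotype and host, with the group mean as a line. Lad1 separated the hosts in both genotypes, Rln3 was at 26.5 RPKM or above in the OT-II libraries from RIPmOVA hosts and at 1.37 RPKM or below elsewhere, and Penk had a single raised OT-II library among the WT hosts at 3.55 RPKM.

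Read against all genes, 1.05% of the 11569 genes tested were called higher with antigen in OT-II cells (1.23% in either direction), and 1.52% in DKO-labelled cells (1.68% in either direction). A call required a limma adjusted p of 0.05 or less and an absolute log2 change of at least 1. Of the 4 genes, 4 met this limit in OT-II cells and 2, Lad1 and Il1r2, in DKO-labelled cells, counts that the selection fixed in large part and from which nothing is read. The genes that followed Lad1, Penk and Rln3 in the OT-II order were Rgs16 at 4.39, Mir155hg at 4.38 and Tnfrsf9 at 4.28, which are genes of activated lymphocytes and were not included. The rise in DKO-labelled cells minus the rise in OT-II cells, from the same fit and given without a test, was -2.36 (SE 0.36) for Lad1, -2.43 (SE 1.21) for Penk, -4.65 (SE 0.50) for Rln3 and 2.16 (SE 0.66) for Il1r2.

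**Figure D2:**
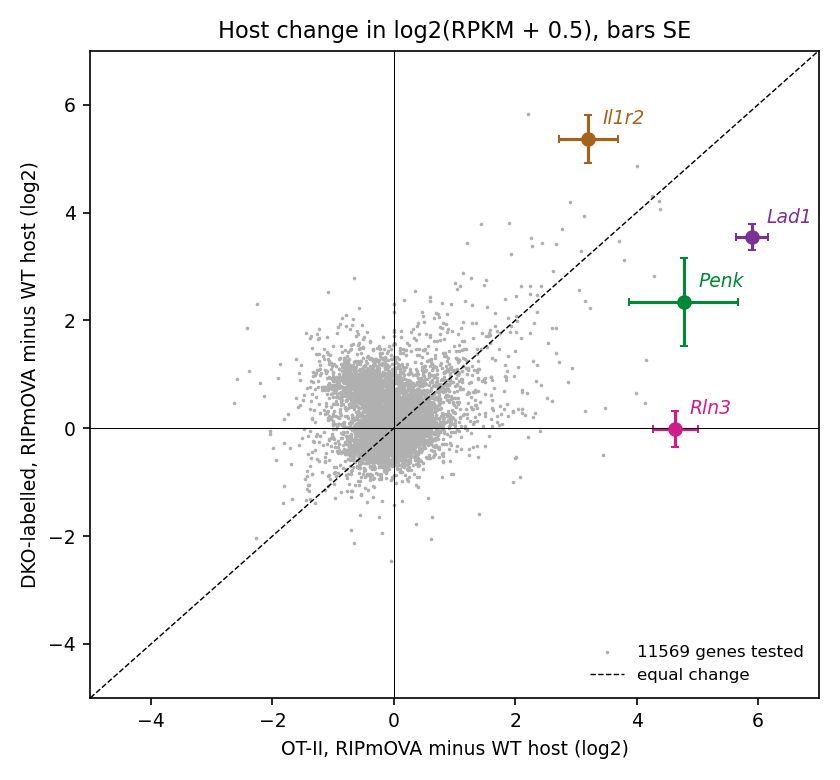
Change between RIPmOVA and WT hosts in log2(RPKM + 0.5) for OT-II cells (x axis) and DKO-labelled cells (y axis), with grey points for the 11569 genes tested and bars for the SE of the 4 genes. Lad1, Penk and Rln3 lie to the right of the line of equal change and Il1r2 above it, with Rln3 at -0.02 on the y axis.

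With antigen present, Lad1, Penk and Rln3 were lower and Il1r2 was higher in DKO-labelled than in OT-II cells. The RIPmOVA-host values helped to choose the genes, and none of the 4 passed the filter for testing without libraries from RIPmOVA hosts, so these differences are a description without a test. Rln3 was 51.9-fold higher in OT-II cells by mean RPKM (32.4 ± 8.37 against 0.625 ± 0.011, SD, n = 2 each), a log2 difference of -4.85 (SE 0.37, 95% interval -5.69 to -4.01). Lad1 was 6.16-fold higher in OT-II cells (40.8 ± 1.90 against 6.63 ± 2.85, n = 2 each), a log2 difference of -2.59 (SE 0.26, 95% interval -3.19 to -2.0).

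The other two genes varied more between libraries of a group. The Penk means were 46.9 ± 33.0 RPKM for OT-II cells and 3.21 ± 2.97 RPKM for DKO-labelled cells (n = 2 each), a log2 difference of -3.75 (SE 0.90) with a wide 95% interval of -5.78 to -1.73. The Il1r2 means were 14.8 ± 3.49 RPKM for OT-II cells and 44.2 ± 37.0 RPKM for DKO-labelled cells (n = 2 each), a log2 difference of 1.26 (SE 0.49, 95% interval 0.16 to 2.36). Its size rested on a single library, being 2.23 without DKO-labelled replicate 2 and 0.30 without DKO-labelled replicate 1. Across all genes tested 1.07% were called in this comparison and 0.562% were called lower in DKO-labelled cells, and 2 of the 4 genes, Lad1 and Rln3, met that limit, from which nothing is read because of the choice. All 4 genes had groups that did not overlap, as did 59.0% of all genes tested, a common result with 2 libraries a group.

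The values without antigen entered the choice as the low side of the rise. None of the 4 passed the filter without libraries from RIPmOVA hosts, so the genotype differences without antigen are a description without a test. Of all genes tested, 0.0605% were called in this comparison (7 genes by limma, with 913 at an unadjusted p under 0.05). None of the 4 genes met that limit, from which nothing is read because of the choice. The log2 difference was -0.23 for Lad1 (95% interval -0.77 to 0.31) and -1.32 for Penk (-3.17 to 0.53). It was -0.20 for Rln3 (-0.96 to 0.57) and -0.90 for Il1r2 (-1.90 to 0.10). With the chimera as a replicate block, which gives no weight to the unpaired DKO-labelled replicate 3, the Rln3 difference was 0.044. Without OT-II replicate 2 the Penk difference was 0.11, so that neither gene had a stable sign. Il1r2 was the only one of the 4 whose groups did not overlap, at 1.15 ± 0.27 RPKM (n = 2) against 0.382 ± 0.022 RPKM (n = 3), and 20.8% of all genes tested shared that property. The intervals still admit differences of more than 2-fold in Penk and Il1r2. For each gene they use a spread shared by all 9 libraries, so they do not measure the spread of the WT-host libraries alone. That of Il1r2 also carries the distance between the DKO-labelled libraries with antigen, at 70.4 and 18.1 RPKM.

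**Figure D3:**
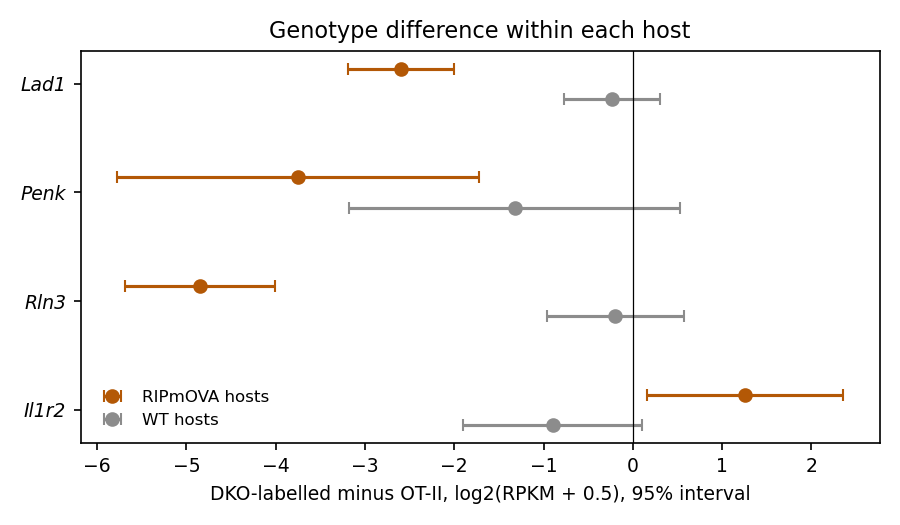
Difference between DKO-labelled and OT-II cells in log2(RPKM + 0.5), with 95% intervals, in RIPmOVA hosts (orange) and WT hosts (grey). The intervals in RIPmOVA hosts lie below 0 for Lad1, Penk and Rln3 and above 0 for Il1r2 (0.16 to 2.36), and all 4 intervals in WT hosts include 0. For each gene the intervals use a spread shared by all 9 libraries.

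Since the labels give both genotypes the same host mice, they were also compared within chimeras. In the RIPmOVA chimeras 1 and 2 the DKO-labelled value was 0.205 and 0.117 times the OT-II value for Lad1, 0.226 and 0.016 times for Penk, 0.016 and 0.024 times for Rln3, and 4.07 and 1.46 times for Il1r2. Both chimeras gave the same direction for each gene, and the size of the ratio was most alike for Lad1 and Rln3 and least alike for Penk. In the WT chimeras 1 and 2 the ratio was 0.497 and 0.706 for Lad1, 2.22 and 0.572 for Rln3 1.29 and 0.064 for Penk and 0.286 and 0.418 for Il1r2, so that the chimeras differed in direction for Rln3 and Penk.

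**Figure D4:**
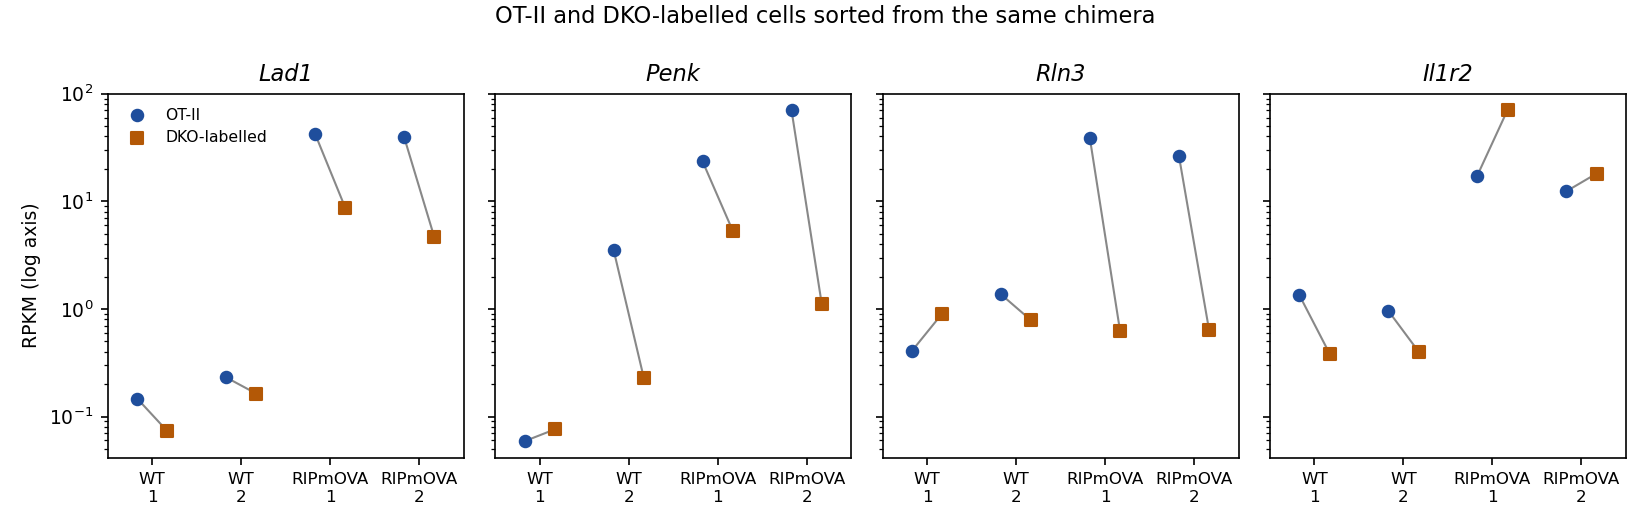
RPKM on a log axis in OT-II (circles) and DKO-labelled cells (squares) sorted from the same animal, joined by a line, for 2 WT and 2 RIPmOVA chimeras. Lines fall in both RIPmOVA chimeras for Lad1, Penk and Rln3 and rise for Il1r2, to 4.07 times the OT-II value in chimera 1 and 1.46 times in chimera 2.

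The 4 genes did not follow a single pattern across libraries. Over the 4 RIPmOVA-host libraries, on the log2 scale, Pearson's r was 0.95 between Lad1 and Penk, 0.97 between Lad1 and Rln3 and 0.89 between Penk and Rln3, and from -0.65 to -0.42 between each of these and Il1r2. These values describe 4 libraries from 2 animals and largely restate the genotype difference. Over all 9 libraries, the genes most like Lad1 were Cysltr2 (r = 0.99), a cysteinyl leukotriene receptor, Hip1r, Fam129a, Colq and Cish, the last a feedback inhibitor of cytokine receptor signalling. Colq went from 3.64 RPKM in OT-II cells from WT hosts to 36.1 RPKM with antigen and 19.5 RPKM in DKO-labelled cells with antigen, on the Lad1 order of groups. Those most like Rln3 were 2410003L11Rik (r = 0.99), Parp8, Tmem121, Fam110a and Ifng, which encodes interferon gamma. Ifng was at 1.68 and 1.48 RPKM in the OT-II libraries with antigen, at 0.185 and 0.036 RPKM in the DKO-labelled libraries with antigen, and at no more than 0.137 RPKM in any WT-host library. Those most like Penk were Mthfs (r = 0.98), Litaf, Tmem131l, Mapkapk2 and Acsbg1, and those most like Il1r2 were Tgif1 (r = 0.99), Apobec3, Pou2af1, Stx6 and Rnpep. Pou2af1, a coactivator of octamer-binding factors, went from 2.22 to 6.07 RPKM in OT-II cells and from 1.27 to 8.31 RPKM in DKO-labelled cells.

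The genes beside the 4 on their chromosomes were too few to set apart from all genes. Of the 24 nearest protein-coding genes (3 on each side of each gene), 21 were in the table, 11 were expressed enough to test and 0 were called by limma in any of the 4 comparisons, close to the 1.68% or less of all genes called in each. In OT-II cells their median log2 change between hosts was -0.01 (range -0.30 to 1.24), against -0.02 for all genes tested. The upper end was Phlda3, near Lad1, at 1.24 (limma adjusted p = 0.089). Il27ra, which encodes a receptor chain for interleukin-27 and begins 0.34 kb from Rln3, was at 60.3 RPKM in OT-II cells without antigen and 49.1 RPKM with it. Il1r1, the signalling receptor for interleukin-1 and a neighbour of Il1r2, was at 0.360 and 0.217 RPKM.

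Most other genes of the same pathways and tissues were too low to test. Those tested were few and none was called between hosts, close to the 1.23% and 1.68% of all genes called there, so that no list stood apart. Of 13 genes for opioid receptors and for enzymes that process or degrade enkephalins, 8 were under 1 RPKM in every library, the 4 receptor genes Oprd1, Oprm1, Oprk1 and Oprl1 among them, and 0 of the 5 tested were called in any comparison. Pcsk1, a convertase that cuts proenkephalin, was at 2.55 RPKM in WT-host and 0.898 RPKM in RIPmOVA-host OT-II cells, the reverse of Penk, with a log2 change of -1.09 (limma adjusted p = 0.12). Of 8 relaxin family peptides and receptors, 6 were under 1 RPKM everywhere, including Rxfp3, the receptor of relaxin-3. Insl6, an insulin-like peptide known from the testis, was at 42.3 RPKM without and 49.0 RPKM with antigen in OT-II cells and was not called. Of 33 precursors of other peptide hormones and neuropeptides, 27 were under 1 RPKM in every library and 0 of 4 tested were called. Of 13 epithelial anchoring genes 4 were tested and 0 called, and the keratin genes Krt5 and Krt14 averaged no more than 0.237 RPKM in any group.

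In the interleukin-1 pathway 11 of 20 genes were tested, and 0 were called between hosts in either genotype. Il1b, the ligand, averaged 0.035 RPKM at most in any group. The accessory chain Il1rap went from 1.68 to 1.82 RPKM between hosts in OT-II cells, and Sigirr and Myd88 were the most abundant members at 25.8 and 24.5 RPKM without antigen. Between genotypes with antigen 1 of the 11 was called, where 1.07% of all genes tested were, and from 1 gene nothing is read about the list. It was Irak4, a kinase of the pathway, with means of 4.37 and 1.76 RPKM (log2 -1.11, limma adjusted p = 0.026). In WT hosts Irak4 was at 4.14 and 1.75 RPKM.

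Markers of other cell types were low beside those of T cells, and some moved with the groups. The summed RPKM of 10 T cell genes was 1969 to 2260 in all libraries. For 14 myeloid and dendritic genes, of which 4 passed the filter and 0 were called, the sum was 3.29 to 13.2 in OT-II and 2.79 to 7.95 in DKO-labelled libraries from WT hosts, and 10.7 to 22.4 and 7.70 to 10.7 with antigen. Lyz2, lysozyme, made up most of this in OT-II cells with antigen, at 18.7 and 8.44 RPKM against 2.12 and 2.83 RPKM in DKO-labelled cells, the genotype order of Lad1, Penk and Rln3. The 4 genes tested, Lyz2 among them, did not share this order as a whole, and their median genotype difference was 0.39 in log2. Lyz2 was at -2.15 (SE 0.597) and Itgam at -0.17 (SE 0.295), against Xcr1 at 0.94 (SE 0.559) and Cd209a at 1.17 (SE 0.659). In WT hosts Lyz2 was higher in OT-II replicate 1 (7.54 RPKM) than replicate 2 (1.65 RPKM), whereas Penk was higher in replicate 2. For 7 B cell genes, of which 2 passed and 0 were called, the sum was 5.03 to 6.65, 2.90 to 6.49, 5.35 to 10.7 and 7.70 to 8.09, in the order of groups above.

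Of 14 thymic epithelial genes 2 passed the filter, and Aire, Foxn1 and Ccl21a each averaged under 0.8 RPKM in every group, with Cldn3 listed at 0 in all 9 libraries. Their sum was 5.42 to 7.30 and 5.04 to 7.84 RPKM without antigen and 6.52 to 8.35 and 10.6 to 14.3 RPKM with it, highest in DKO-labelled libraries from RIPmOVA hosts. Between hosts in DKO-labelled cells Epcam rose from 2.47 to 7.99 RPKM (log2 change 1.47, called, as were 1.52% of all genes tested). The other gene tested, Prss16, went the other way, from 1.27 to 0.682 RPKM (log2 change -0.56, not called). Reads on olfactory, vomeronasal and taste receptor genes, which T cells are not known to express, came to 557 and 295 RPM (a read number scaled to library depth alone) in OT-II libraries with antigen, to 1052 and 1499 RPM in the DKO-labelled ones, and to between 419 and 1145 RPM in WT hosts. A covariate was made from the log2 of the summed RPKM of these receptor genes. With it the genotype difference with antigen in log2 was -4.84 (SE 0.552) for Rln3 and -2.63 (SE 0.385) for Lad1. It was -2.15 (SE 1.09) for Penk and 1.13 (SE 0.733) for Il1r2. Each SE was larger than in the main fit. The part of these other cells and reads in the results was not tested further. In bulk libraries a smaller share of expressing cells and less RNA per cell cannot be told apart.

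Treg genes, a state in which Penk and Il1r2 are known, were in part higher with antigen. Of 13 genes, 8 were called higher in OT-II cells, where 1.05% of all genes tested were. In DKO-labelled cells 7 were called higher and 1 lower, against 1.52% of all genes called higher and 1.68% in either direction. The median log2 changes were 1.5 and 1.42, against -0.02 and 0.03 for all genes tested. Between genotypes with antigen 4 were called lower in DKO-labelled cells, namely Foxp3, Lrrc32, Itgae and Ahr, where 0.562% of all genes tested were. The median over the list was -0.59 against 0.04 for all genes. Foxp3, the transcription factor that defines Treg, was at 1.90 and 3.31 RPKM in the OT-II libraries with antigen and at 0.092 and 0.077 RPKM in the DKO-labelled ones, with values of 0.290 and 0.491 RPKM and of 0.037 to 0.071 RPKM in WT hosts. Its higher OT-II library with antigen, replicate 2, was also the one with the higher Penk value, while Lad1, Rln3 and Il1r2 were higher in replicate 1. Gene-level RPKM of the deleted genes was not lower in DKO-labelled libraries, with Nr4a1 at 258 ± 33.5 against 245 ± 21.9 and Nr4a3 at 15.3 ± 1.70 against 4.69 ± 1.38 RPKM with antigen (n = 2 each). A sum over all exons does not check a deletion of part of a gene, and every difference by genotype above rests on the labels.

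**Figure D5:**
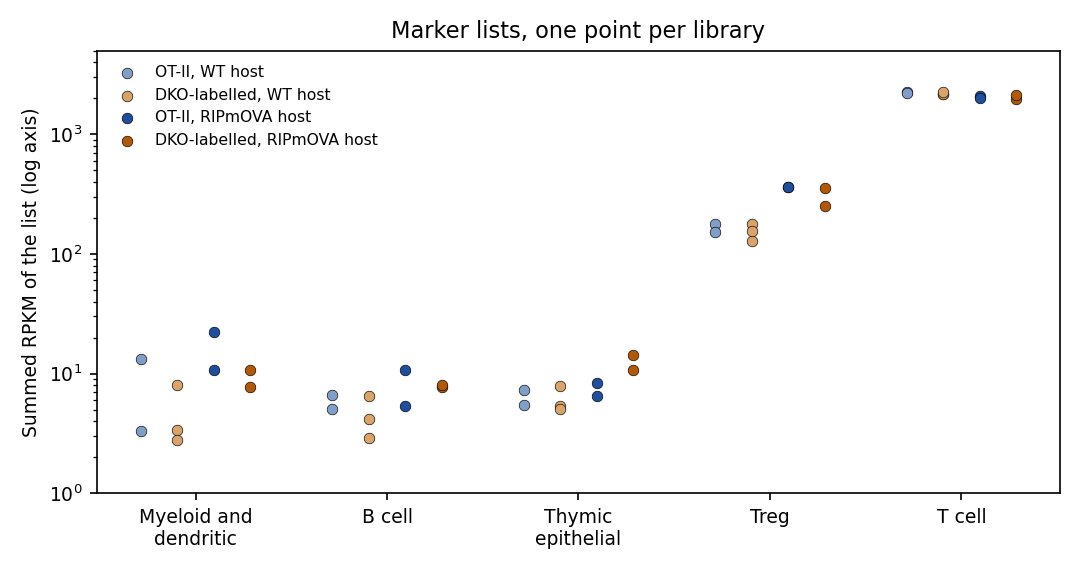
Summed RPKM on a log axis of 5 marker lists, with 1 point per library and colours for the 4 groups. T cell genes lie between 1969 and 2260 in all libraries, Treg genes rise with antigen to between 250 and 365, and the lists of other cells stay at 22.4 or below.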

How the data were processed

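Sorted thymocytes from 4 groups were profiled by poly(A) RNA sequencing (SMART-seq v4, Nextera XT, paired-end). Per the labels and methods the authors aligned reads with STAR to mm10 with GENCODE vM17, removed duplicates with Picard, summed exon reads per Entrez gene with GenomicRanges and deposited RPKM values for 9 libraries. Because duplicates were removed and cDNA was amplified, low values carry both counting and amplification error.

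Library depth was recovered from the RPKM steps: 100% of the values checked (under 50 reads) came out whole within 0.1 read. The 11569 genes that reached 1 RPKM in 2 or more libraries were tested on log2(RPKM + 0.5) with limma 3.58.1 in R 4.3.3 (group means, intensity trend, two-sided, Benjamini-Hochberg), and a call needed an adjusted p no higher than 0.05 and an absolute log2 change no lower than 1. Low genes are shrunk by the pseudocount. The 2 or 3 libraries per group come from different chimeras.

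The labels name the host mouse of each library, the same for both genotypes at a replicate number. Libraries were paired by it for the within-chimera ratios and the replicate block. The main fit had no pairing and used a spread shared by all groups. Deviations from group means correlated within pairs at 0.0059 and -0.239 in WT and -0.0793 in RIPmOVA chimeras. A replicate block, other pseudocounts, filters and scalings, a covariate for sensory receptor reads, and each library left out were alternatives; voom on recovered reads was added after seeing the data.

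Members and gene lists were chosen with earlier results of these data known. Named genes were the 4 members, the 5 genes most alike each over 9 libraries, the 3 nearest on each side, the 10 highest host changes, and from lists those called between genotypes or most abundant. Promoters (3 of 4 members, 250 bases) came from RefSeq and positions from GENCODE vM21.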

Additional observations from a re-analysis of the deposited data

How the results depend on the processing

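The genotype differences with antigen, given as descriptions, changed sign under none of the 20 alternatives. Many of these could not move the estimates, which are differences of group means. They are other filters, no intensity trend, only the libraries compared, the replicate block, and WT-host libraries left out. Only the remaining alternatives bear on the sign. In log2 they ranged from -5.52 to -4.34 for Rln3, from -3.01 to -2.18 for Lad1 (-2.63 with the covariate for sensory receptor reads, -2.55 without OT-II RIPmOVA replicate 1), from -4.68 to -2.15 for Penk (-3.52 at a pseudocount of 1, and -4.68 to -2.83 on leaving out a library) and from 0.30 to 2.23 for Il1r2. Without antigen, Penk reversed to 0.11 without OT-II replicate 2 (range on leaving out a library -2.75 to 0.11). Rln3 reversed to 0.044 without DKO-labelled replicate 3 and to 0.33 without OT-II replicate 2 (range -0.72 to 0.33). The replicate block gave the same 0.044 for Rln3, because it gives no weight to the unpaired DKO-labelled replicate 3, and is not a separate reversal. These differences without antigen are also a description, and the cause of the reversals was not tested.

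Genes called between genotypes with antigen numbered 124, and 20 with the covariate, 81 with a filter at 5 RPKM, 220 from only the libraries compared, 201 after quantile normalisation and 21 (without OT-II RIPmOVA replicate 1) to 217 (without OT-II WT replicate 2) on leaving out a library. Without antigen 7 were called, and 4 with no filter, 2 from only the libraries compared, 2 with the replicate block, and 5 to 100 (without OT-II WT replicate 2) on leaving out a library. Between hosts 142 were called in OT-II cells, and 55 with no filter, 31 from only the libraries compared and 50 to 296 on leaving out a library, and 194 in DKO-labelled cells, and 90 with the covariate, 117 with no filter and 98 to 259 on leaving out a library. The replicate block reversed no other difference of the 4 genes. With no filter, which added genes near 0, the median log2 change of all genes between hosts in DKO-labelled cells was 0.12, against 0.03 in the main fit. Between genotypes with antigen it was 0.15, against 0.04 in the main fit. Depth limits Lad1, Penk and Rln3 in WT hosts, where single libraries held as few as 3, 1 and 4 reads, in that order.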
